A study of Mus musculus with 12 samples.

Results

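Glutathione S-transferases join the tripeptide glutathione to reactive compounds, which makes them soluble and ready for export from the cell. The 10 genes described here were taken from the count table by symbol, out of 38087 genes, and comprise 3 of the theta class (Gstt1, Gstt2 and Gstt3), 1 of the pi class (Gstp1), 2 of the alpha class (Gsta2 and Gsta3) and 4 of the mu class (Gstm1, Gstm2, Gstm3 and Gstm6). All 10 were among the 14235 genes that passed a filter on low counts. Growth hormone (GH) went with lower RNA of all 3 theta genes, by a log2 fold change of -0.99 ± 0.09 for Gstt1 to -2.07 ± 0.24 for Gstt3 (SE), and with higher RNA of Gstp1, by 1.17 ± 0.26. Gsta3 and Gstm1 were lower by smaller amounts, and Gsta2, Gstm2, Gstm3 and Gstm6 did not pass the test.

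The livers came from germ-free male C57BL/6j mice of 13 to 16 weeks, animals kept without any microorganisms, so that both groups lacked a gut flora. In the GH group 6 livers were sampled after subcutaneous recombinant human GH, at 50 µg per mouse, and in the control group 6 were sampled after phosphate-buffered saline (PBS). Injections were given 2 times a day, at ZT 2 and ZT 14 (hours after lights on), for 5 days, and livers were taken at ZT 2. The labels number the livers within a group without saying that each is a separate animal, so the p-values measure the spread between these 12 libraries.

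The cytosolic enzymes work as dimers, and members of a class share much of their sequence and are often encoded side by side in a gene cluster. The classes differ in preferred substrates, and the liver is rich in the alpha, mu and pi classes. In mice the liver content of several of these enzymes differs between the sexes, with Gstp1 higher in males, and the pituitary's pattern of GH release is known to set many sex differences of liver expression. Known inducers of the family act through the transcription factors NRF2, CAR, PXR and AHR.

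Expression is given in CPM, the count of a gene relative to the total of its library after scaling for library composition. Each log2 fold change is GH minus PBS and comes from edgeR's quasi-likelihood test with Benjamini-Hochberg adjustment over all 14235 genes at a threshold of 0.05. Library totals were 19523104 to 23278931 counts. Across all genes 682 passed, or 4.79%, with 323 higher (2.27%) and 359 lower (2.52%) under GH. Of the 10 glutathione S-transferases, 6 passed (60%), with 1 higher and 5 lower, and their median log2 fold change was -0.34 (-0.20 without PBS library 5), against 0.00 over all genes. The CPM of the 2 groups did not overlap in 4 of the 10 (40%), against 3.18% of all genes tested. The 10 genes were chosen with earlier results of these data known, so these shares are a description and not a test. Of 15 other glutathione transferases tested 13.3% passed. Leaving out 1 library at a time left between 2 and 6 of the 10 past the threshold, with 2 without GH library 2 and 3 without GH library 5. Hepatocyte marker genes were abundant in every library, with a summed level of 91854.2 to 116673.3 CPM under GH and 108199.7 to 124030.8 CPM under PBS, and 0 of 7 passed in edgeR (4 at an unadjusted p under 0.05, 3 in DESeq2 and 0 in limma-voom). In whole liver, fewer cells of a type and less RNA per cell cannot be told apart.

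Reference sequence around the RefSeq starts is shown for Gstt1 and Gstt3, the 2 theta genes whose groups did not overlap. It is also shown for Gstp1, the one gene that rose, and for Gsta3. The Gsta3 window holds the antioxidant response element core searched for here, a form of the letters that NRF2 is known to recognise. Each window runs from 250 bases before to 50 bases after the RefSeq start, 5′ to 3′ along the gene's strand, in GRCm38.p6, and 9 of the 10 genes, all but Gstt2, matched an entry. Capitals mark motifs found by a search of both strands.
Gstt1, chr10:75797682-75797981, minus strand: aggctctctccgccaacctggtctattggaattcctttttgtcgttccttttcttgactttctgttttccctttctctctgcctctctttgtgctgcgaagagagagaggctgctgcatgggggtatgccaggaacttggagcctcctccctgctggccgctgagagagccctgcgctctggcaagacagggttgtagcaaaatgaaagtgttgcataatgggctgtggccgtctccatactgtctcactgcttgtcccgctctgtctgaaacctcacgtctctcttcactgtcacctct
Gstt3, chr10:75781365-75781664, minus strand: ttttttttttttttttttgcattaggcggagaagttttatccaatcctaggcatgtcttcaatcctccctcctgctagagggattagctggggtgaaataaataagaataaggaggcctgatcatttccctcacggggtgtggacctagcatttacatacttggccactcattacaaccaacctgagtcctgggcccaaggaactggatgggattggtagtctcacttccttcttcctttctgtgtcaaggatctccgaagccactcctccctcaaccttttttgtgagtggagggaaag
Gstp1, chr19:4037863-4038162, minus strand: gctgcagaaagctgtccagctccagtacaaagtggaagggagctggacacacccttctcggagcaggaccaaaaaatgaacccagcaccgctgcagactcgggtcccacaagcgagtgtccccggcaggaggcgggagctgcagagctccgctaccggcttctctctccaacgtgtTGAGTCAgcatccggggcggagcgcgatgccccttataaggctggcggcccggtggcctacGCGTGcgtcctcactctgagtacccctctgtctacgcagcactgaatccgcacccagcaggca
Gsta3, chr1:21240335-21240634, plus strand: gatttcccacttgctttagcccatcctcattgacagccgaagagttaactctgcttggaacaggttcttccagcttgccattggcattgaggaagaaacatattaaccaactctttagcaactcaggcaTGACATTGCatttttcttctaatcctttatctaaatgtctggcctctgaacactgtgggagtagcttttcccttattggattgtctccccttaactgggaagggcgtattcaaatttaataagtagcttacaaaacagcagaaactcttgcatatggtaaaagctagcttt
The motifs searched were a STAT5 site (TTCNNNGAA), an antioxidant response element core (TGACNNNGC), an AHR site core (GCGTG), an AP-1 site (TGANTCA) and a TATA box (TATAAA). In Gstp1 the AP-1 letters stood at -74 to -68 and the AHR core at -13 to -9 from the start, and in Gsta3 the antioxidant response element core stood at -121 to -113. These matches did not overlap each other. Only the letters above were searched, so another form of a site, in Gstp1 or elsewhere, would not have been found. The Gstt1 and Gstt3 windows held none of these letters, and none of the 9 windows held the STAT5 letters. Among 32851 windows of the same length, 8.30% held the STAT5 letters, 12.4% the antioxidant response element core, 32.4% the AHR core, 7.81% the AP-1 letters and 13.6% the TATA box. The RefSeq start of Gstt1 lies 853 bases downstream of the start of the gene's main GENCODE transcript, so the Gstt1 window lies within the annotated gene. That of Gstp1 lies 73 bases downstream of its main GENCODE transcript start. The Gstp1 AHR core therefore lies within the annotated gene, and its AP-1 letters span the GENCODE start.

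The theta genes Gstt1, Gstt2 and Gstt3 all came down. These 3 genes lie within one cluster on chromosome 10, all on the minus strand, with Gstt3 at chr10:75774115-75781414, Gstt1 at chr10:75783813-75798584 and Gstt2 at chr10:75831114-75837424 (GRCm38, the mm10 build). Coding sequences were 75.4% identical between Gstt1 and Gstt3, 60.5% between Gstt1 and Gstt2 and 61.4% between Gstt2 and Gstt3. All 3 fell under GH. Gstt4, another theta gene, lies between Gstt1 and Gstt2 and did not pass the filter on low counts. Without that filter its log2 fold change was 0.37 ± 1.06 (SE, edgeR adjusted p = 0.904).

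Gstt1 encodes a theta enzyme known for acting on small halogenated compounds such as dichloromethane. Its level was 73.7, 79.9, 80.4, 82.1, 78.2 and 76.7 CPM in GH libraries 1 to 6, against 185, 131, 162, 134, 139 and 181 CPM in PBS libraries 1 to 6. The GH libraries sat close together, and every one was below every PBS library. The means were 78.5 ± 3.0 CPM under GH and 155 ± 24.0 CPM under PBS (SD, n = 6 each), a 1.98-fold higher level in PBS, and the log2 fold change was -0.99 ± 0.09 (SE, adjusted p = 1.23e-05). Ranked by p, Gstt1 was number 4 of the 14235 genes tested. The coefficient of variation was 3.82% among GH livers and 15.4% among PBS livers, and was not tested for a difference. With any 1 library left out the log2 fold change lay between -1.03 and -0.93 and passed each time.

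Gstt3, a theta paralog next to Gstt1, had the largest change of the 10 genes. It stood at 11.3, 12.1, 11, 11.8, 15.2 and 23.2 CPM in GH libraries 1 to 6, against 81.6, 51.1, 45.0, 43.5, 50.4 and 83.5 CPM in PBS libraries 1 to 6. The groups did not overlap, GH library 6 was the highest of its group, and PBS libraries 1 and 6 were the highest of theirs. Mean levels were 14.1 ± 4.72 CPM under GH and 59.2 ± 18.3 CPM under PBS (SD, n = 6 each), or 4.19-fold higher in PBS, with a log2 fold change of -2.07 ± 0.24 (SE, adjusted p = 0.000924). It held at -2.27 to -1.94 with 1 library left out, and was -2.31 without GH library 6 and PBS library 5 together. Gstt3 shares 524 exonic bases on its own strand with the gene Gm20441, and 10.2% of 125-base stretches of its transcripts are also found there, so some reads could belong to either.

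Gstt2 encodes a theta enzyme known for acting on organic hydroperoxides and sulfate esters. The levels were 10.2, 10.1, 6.82, 9.49, 10.3 and 15.6 CPM in GH libraries 1 to 6, against 24.0, 25.5, 16.1, 12.5, 30.2 and 21.2 CPM in PBS libraries 1 to 6. GH library 6 was the highest of the GH group and lay above PBS library 4, so the groups overlapped. Means were 10.4 ± 2.87 CPM under GH and 21.6 ± 6.48 CPM under PBS (SD, n = 6 each), with a log2 fold change of -1.05 ± 0.23 (SE, adjusted p = 0.0201). The call was lost without GH library 2, with an adjusted p of 0.0501, and when no filter on low counts was used, with 0.0586.

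Within the theta class Gstt3 fell further than Gstt1 and Gstt2. The log2 ratio of Gstt1 to Gstt3 averaged 2.49 ± 0.42 under GH and 1.42 ± 0.27 under PBS (SD, n = 6 each), a difference of 1.06 (exact two-sided permutation test, p = 0.00433, adjusted over 10 within-class pairs 0.0108). The log2 ratio of Gstt2 to Gstt3 averaged -0.40 ± 0.21 under GH and -1.44 ± 0.48 under PBS, a difference of 1.03 (exact permutation p = 0.00216, the smallest that this design allows, adjusted 0.0108). Gstt1 and Gstt2 were not told apart in their change, with log2 ratios of 2.89 ± 0.39 under GH and 2.86 ± 0.49 under PBS and a difference of 0.03 (exact permutation p = 0.9).

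**Figure D1:**
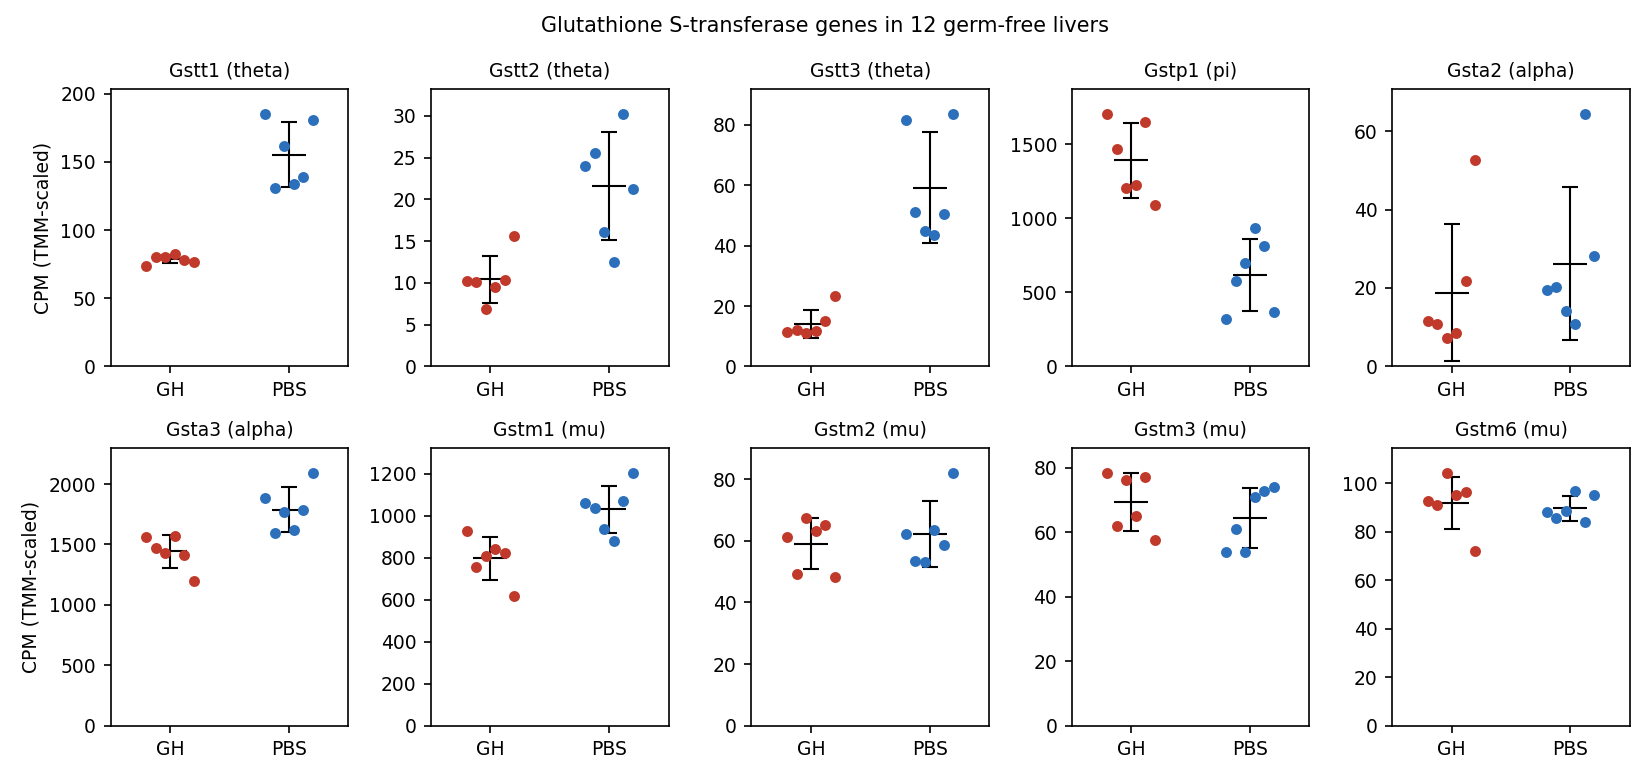
CPM of each of the 10 genes (vertical axes, linear and starting at 0) in the 6 GH livers, at the left, and the 6 PBS livers; points are libraries and bars are the mean ± SD. All GH points lie below all PBS points for Gstt1, Gstt3 and Gsta3 and above them for Gstp1, while the other genes overlap.

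Gstp1 was the one member that rose. It encodes the pi class enzyme, an abundant cytosolic protein of male mouse liver that is also known to bind the stress kinase JNK, and lies at chr19:4035407-4037985 on the minus strand. Its level was 1703.9, 1466.6, 1207.9, 1227.8, 1650.5 and 1092.0 CPM in GH libraries 1 to 6, against 317, 575, 702, 934, 816 and 368 CPM in PBS libraries 1 to 6. The lowest GH library was above the highest PBS library, and PBS libraries 1 and 6, the highest of their group in Gstt1, Gstt3 and Gsta3, were the lowest in Gstp1. Means were 1391.4 ± 253 CPM under GH and 619 ± 245 CPM under PBS (SD, n = 6 each), or 2.25-fold higher under GH, with a log2 fold change of 1.17 ± 0.26 (SE, adjusted p = 0.0245). The call depended on single libraries. Leaving out GH library 1, 2 or 5 or PBS library 2 took the adjusted p to 0.0554, 0.053, 0.0524 and 0.0515, with log2 fold changes between 1.03 and 1.32 over all 12 omissions. Without a filter on low counts it was 0.0581.

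Gstp1 has a close copy beside it. Gstp2 is 98.1% identical to it in coding sequence, and 21.8% of 125-base stretches of Gstp1 transcripts occur also in Gstp2 or a pi pseudogene. Of such stretches of Gstp2 transcripts, 41.8% occur also in Gstp1 or that pseudogene, so counts may have been split or lost between them. How far reads of Gstp1 enter the Gstp2 counts was not tested. Gstp2 stood at 2.62, 2.99, 3.51, 2.46, 3.93 and 2.55 CPM in GH libraries 1 to 6, against 1.30, 2.44, 2.13, 2.11, 1.44 and 0.855 CPM in PBS libraries 1 to 6. Its groups did not overlap, at a level far below that of Gstp1. The log2 fold change was 0.82 ± 0.23 (SE, adjusted p = 0.0475), and the call was kept only without GH library 6 or PBS library 2, with an adjusted p of up to 0.111 in the other 10 omissions. Gstp3, the remaining pi gene, changed by 0.24 (adjusted p = 0.315).

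Of the alpha class, Gsta3 fell slightly and Gsta2 varied too much between livers to be called. Gsta3, at chr1:21240589-21265661 on the plus strand, encodes the mouse enzyme known for inactivating the epoxide of aflatoxin B1. Its level was 1564.7, 1473.1, 1431.6, 1573.4, 1410.8 and 1201.3 CPM in GH libraries 1 to 6, against 1886.8, 1592.4, 1767.0, 1617.4, 1782.1 and 2088.1 CPM in PBS libraries 1 to 6. The groups lay side by side without overlap, with GH library 6 lowest and PBS library 6 highest. Means were 1442.5 ± 136 CPM under GH and 1789.0 ± 183 CPM under PBS (SD, n = 6 each), with a log2 fold change of -0.31 ± 0.09 (SE, adjusted p = 0.0473). This call was the closest to the threshold of the 6 and was lost in 9 of 12 omissions of 1 library, with an adjusted p of up to 0.117, without PBS library 6. It was kept without PBS library 2, 4 or 5.

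Gsta2, at chr9:78331018-78355788 on the minus strand, is an alpha gene known to respond to NRF2 inducers. It stood at 11.5, 10.8, 7.21, 8.48, 21.9 and 52.7 CPM in GH libraries 1 to 6, against 19.5, 20.3, 14.2, 10.8, 64.3 and 28.2 CPM in PBS libraries 1 to 6. One library in each group, GH library 6 and PBS library 5, was far above the rest. Means were 18.8 ± 17.4 CPM under GH and 26.2 ± 19.6 CPM under PBS (SD, n = 6 each), and the log2 fold change of -0.48 ± 0.60 did not pass (SE, adjusted p = 0.732). With 1 library left out it ranged from -1.13, without GH library 6, to 0.01, without PBS library 5. The same 2 libraries were the highest of their groups in the alpha genes Gsta1, at 7.65 CPM in GH library 6 and 15.7 CPM in PBS library 5, and Gsta4, at 41.4 and 54.2 CPM in those libraries. Gsta1 and Gsta2 are 97.6% identical in coding sequence and could share reads, since 75.4% of 125-base stretches of Gsta1 are found in other genes, Gsta2 among them. Gsta4 has no such stretch.

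Of the 4 mu genes described here 1 fell. Gstm1, the most abundant mu gene per kilobase in these livers, lies at chr3:108012255-108017973 in a cluster on the minus strand of chromosome 3 with Gstm2 (chr3:107981702-107986453), Gstm3 (chr3:107963696-107969283) and Gstm6 (chr3:107938847-107943749). Gstm1 stood at 930, 758, 811, 843, 825 and 618 CPM in GH libraries 1 to 6, against 1060.8, 1037, 938, 880, 1069.9 and 1202.3 CPM in PBS libraries 1 to 6. GH library 1 lay above PBS library 4, and the other GH libraries were below all PBS libraries. Means were 797 ± 104 CPM under GH and 1031.3 ± 112 CPM under PBS (SD, n = 6 each), with a log2 fold change of -0.37 ± 0.10 (SE, adjusted p = 0.0377). The call was lost in 7 of 12 omissions of 1 library (GH library 2, 3, 4 or 5 and PBS library 1, 2 or 6), with an adjusted p of up to 0.0954, without PBS library 6.

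Gstm2, Gstm3 and Gstm6 stayed within the spread of the livers. Gstm2 stood at 61.4, 49.3, 67.3, 63.1, 65.2 and 48.4 CPM in GH libraries 1 to 6, against 62.4, 53.5, 53.2, 63.7, 58.6 and 81.9 CPM in PBS libraries 1 to 6 (log2 fold change -0.07 ± 0.11, SE, adjusted p = 0.779). Gstm3, a mu gene known to be induced through NRF2 in mouse liver, stood at 78.2, 61.8, 76.1, 65.0, 77.1 and 57.6 CPM in GH libraries 1 to 6, against 54.0, 61.1, 53.7, 70.9, 72.7 and 74.0 CPM in PBS libraries 1 to 6 (0.11 ± 0.10, adjusted p = 0.632). Gstm6 stood at 92.8, 91.2, 104, 95.0, 96.3 and 72.0 CPM in GH libraries 1 to 6, against 88.2, 85.5, 88.7, 96.9, 83.8 and 95.0 CPM in PBS libraries 1 to 6 (0.04 ± 0.08, adjusted p = 0.861). In all 3 genes the groups overlapped, and GH library 6 was the lowest of the GH group.

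The tests of the ratios set Gstm1 apart from Gstm2, Gstm3 and Gstm6. The log2 ratio of Gstm1 to Gstm3 averaged 3.51 ± 0.12 under GH and 4.0 ± 0.23 under PBS (SD, n = 6 each), a difference of -0.48 (exact permutation p = 0.00433, adjusted 0.0108). For Gstm1 to Gstm6 the averages were 3.11 ± 0.12 under GH and 3.51 ± 0.19 under PBS, a difference of -0.40 (exact permutation p = 0.00433, adjusted 0.0108). For Gstm1 to Gstm2 the difference was -0.31 (exact permutation p = 0.0152, adjusted 0.0303), and this one was lost in 8 of 16 alternative settings. Ratios among Gstm2, Gstm3 and Gstm6 differed by -0.18 to 0.08 and did not pass, with adjusted p of 0.152 to 0.53 by the same exact permutation test. Coding sequences of Gstm1, Gstm2, Gstm3 and Gstm6 were 82.9% to 89.4% identical in pairs. Stretches of 125 bases shared with other genes made up 6.49% of Gstm3, 1.07% of Gstm1, 0.0414% of Gstm6 and 0 of Gstm2.

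**Figure D2:**
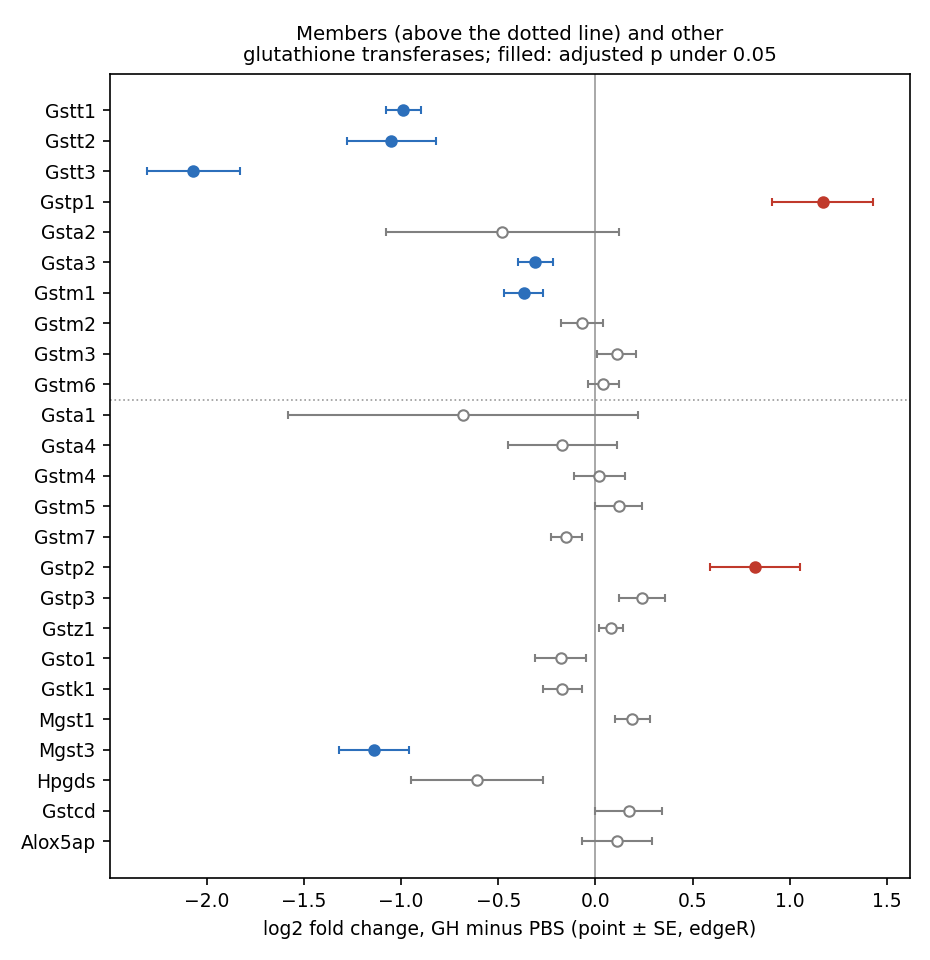
Log2 fold change, GH minus PBS, with its SE (axis in log2 units) for the 10 genes by class and for the other tested glutathione transferases; filled symbols passed an adjusted p of 0.05. The 3 theta genes lie between -2.07 and -0.99, Gstp1 at 1.17, and the mu genes other than Gstm1 near 0.

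Levels of the 10 genes were set against each other per kilobase, with the union of annotated exons as the length. Under GH Gstp1 led with 899 ± 164 CPM per kb, ahead of Gstm1 with 541 ± 70.8 and Gsta3 with 332 ± 31.3 CPM per kb (SD, n = 6). Under PBS Gstm1 led with 700 ± 76.4 CPM per kb, and Gsta3 with 412 ± 42.2 and Gstp1 with 400 ± 159 CPM per kb did not differ beyond their spread. Gstp1 was the highest of the 10 in 6 of 6 GH livers, while in PBS livers Gstm1 was highest in 5 and Gstp1 in 1. Gstt1 was 51.4 ± 1.96 CPM per kb under GH, within the spread of Gstm3 (52.9 ± 6.80) and Gstm6 (46.2 ± 5.39), and 102 ± 15.7 CPM per kb under PBS, above both. Gstm2, at 35.2 ± 4.88 CPM per kb under GH and 37.1 ± 6.31 under PBS, came next, followed by Gsta2, at 15.9 ± 14.8 under GH and 22.3 ± 16.6 under PBS. The lowest were Gstt3, at 3.67 ± 1.23 CPM per kb under GH and 15.4 ± 4.77 under PBS, and Gstt2, at 2.51 ± 0.691 under GH and 5.2 ± 1.56 under PBS. Parts of this order depended on the length used, since the union includes parts of minor transcripts, such as retained introns, and comes to 4344 bases for Gsta3, against 1457 in its main transcript. Per kilobase of main transcript Gstp1 led under GH with 1694.8 ± 308 CPM per kb, in 6 of 6 livers, ahead of Gsta3 with 990 ± 93.3 and Gstm1 with 619 ± 80.9. Under PBS Gsta3 then led with 1227.8 ± 126 CPM per kb, in 5 of 6 livers, ahead of Gstm1 with 800 ± 87.2 and Gstp1 with 754 ± 299. Gstt1, at 75.7 ± 2.89 CPM per kb under GH, was then above Gstm3, at 52.9 ± 6.80. Gstt2 and Gstt3 were the lowest under GH by either length.

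Summed per kilobase, the 10 genes gave a pool of 1980.0 ± 239 CPM per kb under GH and 1787.5 ± 117 CPM per kb under PBS (SD, n = 6 each), with overlapping ranges of 1615.2 to 2298.3 under GH and 1646.6 to 1962.2 under PBS. Its make-up differed, which follows from the genes above and was given no test of its own. The pi class held 41.1% to 49.1% of the pool in GH livers, against 12.4% to 33.1% in PBS livers. Theta genes held 2.33% to 3.72% in GH livers, against 5.59% to 9.0% in PBS livers. The mu class held 32.0% to 37.4% in GH livers, against 40.4% to 52.2% in PBS livers, and the alpha class 15.8% to 19.9% in GH livers, against 20.9% to 27.4% in PBS livers. Per kilobase of main transcript the alpha share was above the mu share, at 25.2% to 31% in GH livers and 34.0% to 44.9% in PBS livers, against a mu share of 20.8% to 24.8% in GH livers and 26.7% to 34.9% in PBS livers, while the pi share was 42.5% to 51.1% in GH livers and 13.2% to 34.5% in PBS livers. Since these are shares of one pool, a rise of Gstp1 alone lowers the other 3. Per kilobase of exon union the theta genes themselves summed to 53.6 to 60 CPM per kb under GH, against 102 to 148 under PBS. The alpha genes summed to 321 to 370 under GH, against 382 to 505 under PBS. The mu genes summed to 528 to 774 under GH, against 738 to 969 under PBS, with overlap.

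**Figure D3:**
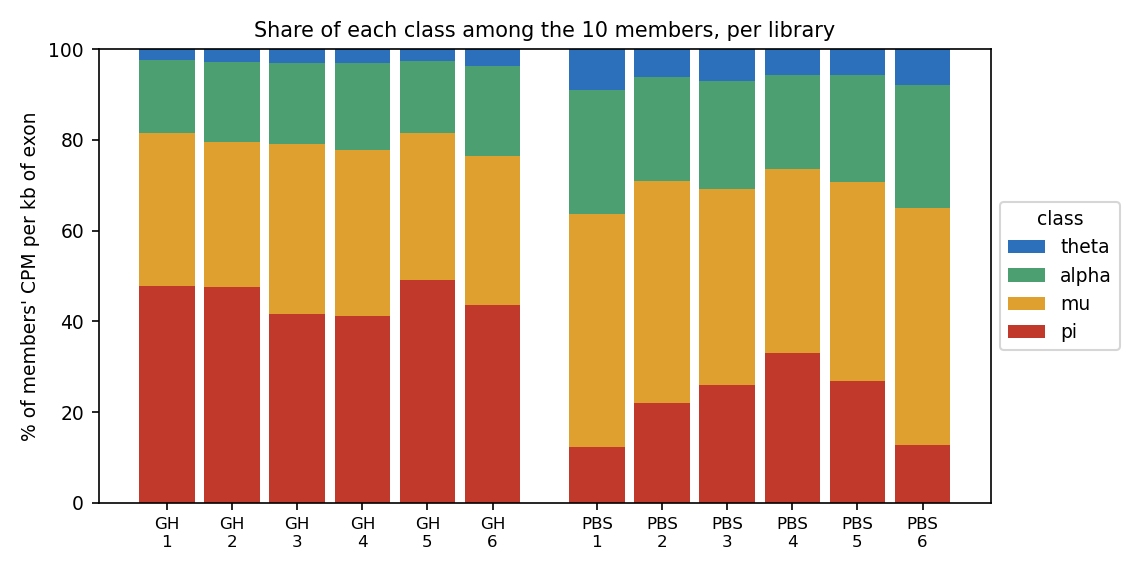
Stacked bars give the share of each class in the pool of the 10 genes, in percent of summed CPM per kb of exon union (vertical axis), for each of the 6 GH livers, at the left, and the 6 PBS livers. The pi share is 41.1% to 49.1% in the GH livers and 12.4% to 33.1% in the PBS livers.

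Of the other glutathione transferases a microsomal one fell and a copy of Gstp1 rose. Of 15 further genes tested, 1 was higher and 1 lower (13.3%), with a median log2 fold change of 0.02 and a range of -1.14 to 0.82. The lower one was Mgst3, a membrane-bound microsomal transferase, with 5.45, 4.04, 4.87, 3.24, 5.06 and 4.70 CPM in GH libraries 1 to 6, against 13.0, 9.34, 9.42, 5.57, 10.1 and 12.6 CPM in PBS libraries 1 to 6. No GH library reached the lowest PBS library, and the log2 fold change of -1.14 ± 0.18 (SE, adjusted p = 0.00182) passed in every omission of 1 library. The higher one was Gstp2, which may share reads with Gstp1, as given above. The abundant transferases Mgst1, at 2540.2 CPM under GH and 2220.8 CPM under PBS (adjusted p = 0.25), and Gstz1, at 699 CPM under GH and 662 CPM under PBS (adjusted p = 0.522), did not pass. Nor did Gstk1 (log2 fold change -0.17, adjusted p = 0.402), Gsto1 (-0.18, 0.49), Gstm7 (-0.15, 0.323), Gstm4 (0.02, 0.946) or Gsta4 (-0.17, 0.798).

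Genes next to the transferases were examined because the theta and mu genes lie in clusters. Within 100 kb of the 10 genes, 33 other genes were tested, of which 3 were higher and 2 lower (15.2%, against 4.79% of all genes), with a median log2 fold change of -0.01. Both lower ones adjoin Gstt3. Gm20441, which shares 524 exonic bases with Gstt3 and 232 with Ddt on the same strand, averaged 112 ± 15.5 CPM under GH and 191 ± 32.6 CPM under PBS (SD, n = 6 each), a log2 fold change of -0.77 ± 0.11 (SE, adjusted p = 0.00105). Ddt, a tautomerase gene related to Mif, averaged 133 ± 17.8 CPM under GH and 180 ± 28.3 CPM under PBS (-0.43 ± 0.11, adjusted p = 0.0249), and was lost without GH library 1, 2, 3 or 4 or PBS library 6. How far shared reads carry these changes between Gstt3, Gm20441 and Ddt was not tested. On the other side of the theta cluster Mif itself did not pass (-0.17, adjusted p = 0.376). Derl3, a gene of protein quality control in the endoplasmic reticulum, had the largest difference of the neighbours, at 6.17 ± 3.44 CPM under GH and 1.82 ± 0.87 CPM under PBS, and did not pass (1.75 ± 0.45, adjusted p = 0.0506). Around the mu cluster only Gnat2, a transducin gene of the eye, passed among the neighbours, at 2.12 ± 0.577 CPM under GH and 0.878 ± 0.410 CPM under PBS (1.26 ± 0.29, adjusted p = 0.0173). Near Gstp1 the higher neighbours were Gstp2 and Acy3.

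**Figure D4:**
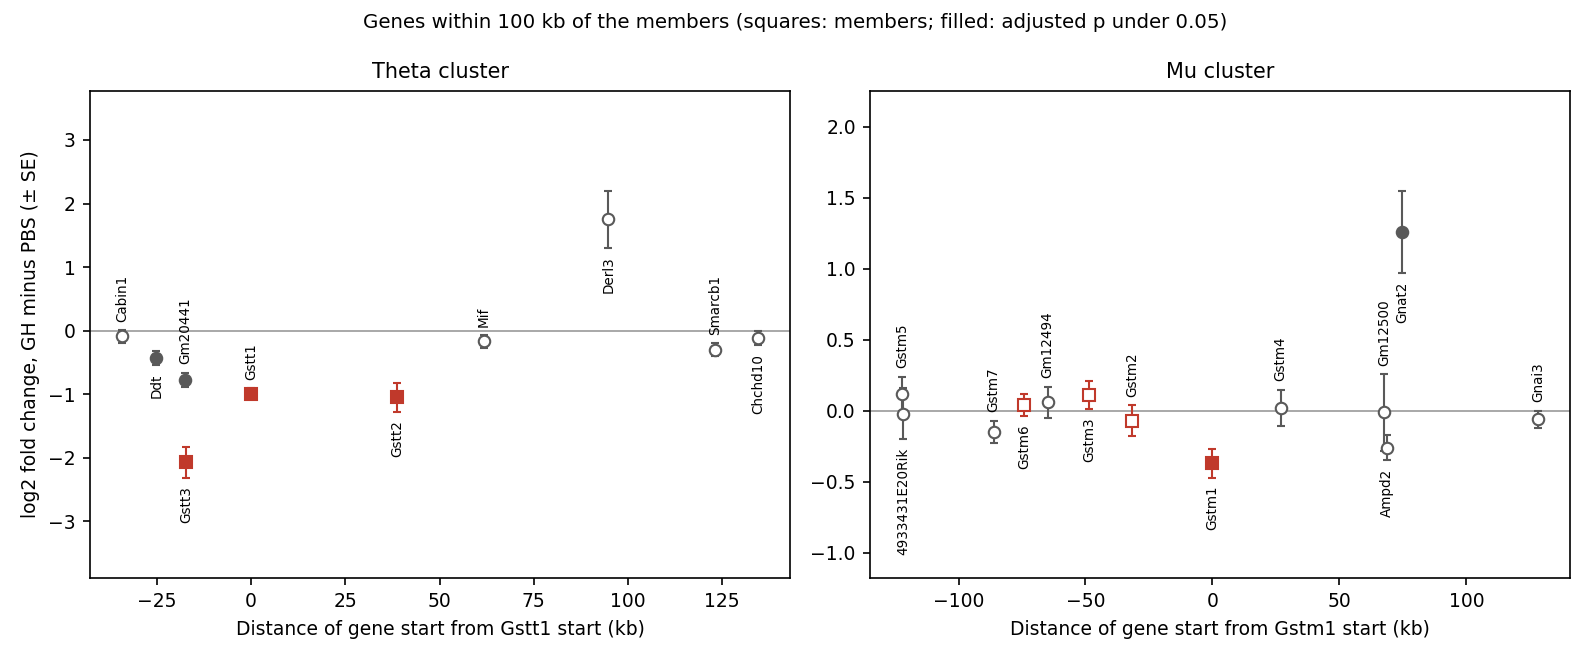
Log2 fold change, GH minus PBS, with its SE (vertical axis) against the distance of each gene's start from that of Gstt1 (left) or Gstm1 (right) in kb; squares are the theta and mu genes described, circles their neighbours, and filled symbols passed an adjusted p of 0.05. The lower theta genes are accompanied by Gm20441 at -0.77 and Ddt at -0.43, while the mu genes other than Gstm1 lie near 0.

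Few genes of glutathione supply and recycling passed. Of 13 genes of glutathione synthesis and supply, 1 was higher and 0 lower (7.69%), with a median log2 fold change of -0.08. That gene was Gclc, the catalytic subunit of the rate-limiting enzyme of glutathione synthesis, at 505 ± 108 CPM under GH and 352 ± 43.9 CPM under PBS (SD, n = 6 each; 0.52 ± 0.13, SE, adjusted p = 0.0373). Its call was lost in 9 of 12 omissions of 1 library and kept without GH library 5 or 6 or PBS library 5. The Gclc call was also lost in limma-voom, with library totals as the scale, without a filter on low counts and with replicate number as a block. Of 24 genes of glutathione redox cycling, 0 passed in edgeR (3 at an unadjusted p under 0.05, 3 in DESeq2 and 0 in limma-voom), with a median of -0.05 and a range of -0.30 to 0.22.

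Later steps of the mercapturate route, by which glutathione conjugates are trimmed and acetylated for excretion, differed in both directions. Of 20 genes of conjugate export and mercapturate formation, 4 were higher and 1 lower (25%), with a median log2 fold change of 0.09. Nat8, which acetylates cysteine conjugates in the last step, stood at 17.4, 14.4, 16.3, 17.7, 12.9 and 11.2 CPM in GH libraries 1 to 6, against 6.10, 8.54, 9.91, 8.73, 8.69 and 8.72 CPM in PBS libraries 1 to 6. Its groups did not overlap, and the log2 fold change was 0.83 ± 0.13 (SE, adjusted p = 0.00149). Acy3, an aminoacylase that removes the acetyl group again, was higher (0.42 ± 0.09, adjusted p = 0.0128), as were Cml2, a Nat8 relative (0.36 ± 0.09, 0.0252), and Anpep, a peptidase (0.26 ± 0.07, 0.0333). Cml1, another Nat8 relative, was lower (-0.35 ± 0.08, 0.0128). Cml1 shares 478 exonic bases with Tprkb on the opposite strand, and whether the counting used strand is not known. Cml2 was lost without GH library 2, 3 or 4 or PBS library 1, 3, 4 or 6, and Anpep without GH library 1, 2, 4 or 5 or PBS library 3, 4 or 6. With library totals as the scale 2 of the 20 genes were higher and 1 lower.

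Genes of the regulators known to act on the family were read from the same fit. Of 31 genes of the NRF2 pathway 1 was higher and 2 lower (9.68%), with a median log2 fold change of -0.04. The higher one was Gclc, whose call depended on the libraries and settings used, as given above. Nfe2l2, which encodes NRF2 itself, averaged 43.6 ± 3.42 CPM under GH and 53.4 ± 3.69 CPM under PBS (SD, n = 6 each; -0.29 ± 0.07, SE, adjusted p = 0.0200) with no overlap, and Cbr1, a carbonyl reductase, averaged 30.1 ± 2.31 CPM under GH and 45.8 ± 8.88 CPM under PBS (-0.60 ± 0.11, adjusted p = 0.00401). The Nfe2l2 call was lost without GH library 4 or PBS library 3 or 6, with an adjusted p of up to 0.0509. Keap1, the inhibitor of NRF2, did not pass (-0.11 ± 0.08, adjusted p = 0.535). Of 9 AHR pathway genes 1 was higher and 0 lower (11.1%), with a median log2 fold change of -0.28 and a range of -0.72 to 0.67. In edgeR 6 of the 9 had an unadjusted p under 0.05. Without GH library 6 and PBS library 5, 3 were lower. The AHR pathway gene that passed was Cyp1a2, a cytochrome P450 of pericentral hepatocytes, at 509 ± 90.1 CPM under GH and 319 ± 24.6 CPM under PBS (0.67 ± 0.11, adjusted p = 0.00182). Ahr did not pass (0.33 ± 0.21, adjusted p = 0.441).

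Among genes of the pathway of the xenobiotic receptors CAR and PXR, 9 of 28 were lower and 1 was higher (35.7%), with a median log2 fold change of -0.46 and a range of -4.57 to 2.01, and the lower count was 3 without GH library 2 and 12 without GH library 6 and PBS library 5. The minimum, of the cytochrome P450 gene Cyp2b9, did not pass (-4.57 ± 1.21, SE, adjusted p = 0.0622). The lowest of those that passed were Alas1, the first enzyme of haem synthesis (-1.93 ± 0.39, SE, adjusted p = 0.0202), Gadd45b, a stress-response gene (-1.83 ± 0.41, 0.0190), and Por, which passes electrons to cytochromes P450 (-1.40 ± 0.29, 0.0216). At the other end Sult1e1, an oestrogen sulfotransferase, was higher (2.01 ± 0.38, adjusted p = 0.0128), and the aldehyde dehydrogenases Aldh1a7 (-0.34 ± 0.08, 0.0224) and Aldh1a1 (-0.61 ± 0.16, 0.0422) were the mildest of the lower ones. Omission of 1 library lost the call of Alas1 (GH library 2 or 3), Gadd45b (GH library 2), Por (GH library 1, 3, 4 or 5), Aldh1a7 (GH library 2 or 5 or PBS library 6) and Aldh1a1 (all but GH library 4 and PBS library 5). Alas1 shares 465 exonic bases with 4930500F10Rik and Nr1i3 shares 3304 with Tomm40l, both on the opposite strand. Transcripts of the receptors did not pass, with Nr1i3 (CAR) at -0.02 ± 0.27 (adjusted p = 0.982) and Nr1i2 (PXR) at 0.08 ± 0.06 (0.526).

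Enzymes of other conjugation reactions gave 1 higher and 3 lower of 31 (12.9%), with a median log2 fold change of -0.02. Ugt2b1, a glucuronosyltransferase, averaged 1237.1 ± 94.6 CPM under GH and 647 ± 183 CPM under PBS (SD, n = 6 each; 0.94 ± 0.15, SE, adjusted p = 0.00248). The phenol sulfotransferase Sult1a1 averaged 244 ± 60.6 CPM under GH and 431 ± 77.3 CPM under PBS (-0.82 ± 0.15, adjusted p = 0.00783). Glyat, which joins glycine to acyl groups, was lower (-0.50 ± 0.10, adjusted p = 0.0111), as was Ugt2a3, another glucuronosyltransferase (-0.29 ± 0.06, 0.0155).

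**Figure D5:**
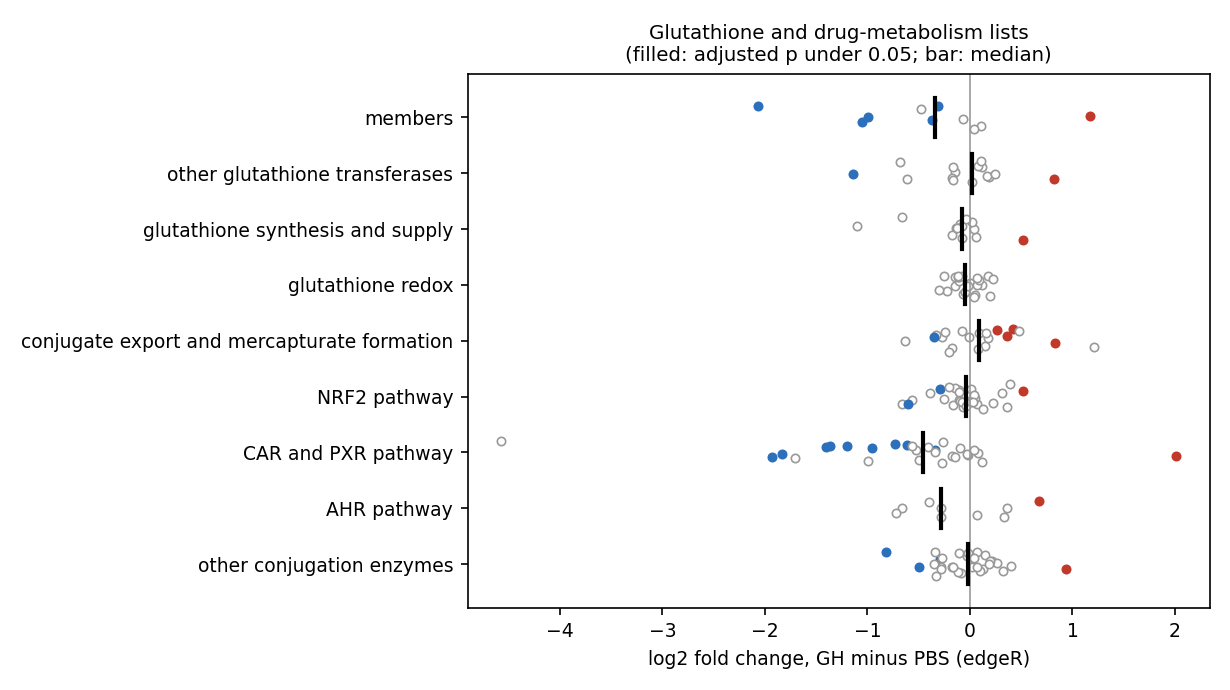
Log2 fold change, GH minus PBS (horizontal axis), of every tested gene in the glutathione and drug-metabolism lists, one list per line (members are the 10 glutathione S-transferases); filled points passed an adjusted p of 0.05 and bars are medians. The median of the 10 glutathione S-transferases is -0.34, that of the CAR and PXR genes -0.46, and those of the redox and NRF2 lists -0.05 and -0.04.

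Markers of liver zones and of other cells were read beside these results. Of 12 pericentral hepatocyte markers 1 was higher (Cyp1a2) and 0 lower (8.33%, against 4.79% of all genes), with a median log2 fold change of 0.10. Of 12 periportal markers 1 was higher, Cyp2f2 (0.40, adjusted p = 0.0111), and 1 lower, Ctsc (-0.37, adjusted p = 0.0258, lost without GH library 1, 3, 4 or 5 or PBS library 3 or 6), or 16.7%, with a median of -0.12. Of 6 stellate cell and fibroblast markers 1 was lower (16.7%), Dcn, the matrix proteoglycan decorin (-0.38, adjusted p = 0.00296). Log2 fold changes in that list were positive for 4 genes and negative for 2, with a median of 0.14 and a range of -0.38 to 0.45. The list summed to 333 to 398 CPM under GH and 359 to 416 CPM under PBS. Of 6 Kupffer cell markers all 6 had negative log2 fold changes, with a median of -0.18, and 0 passed in edgeR (0 at an unadjusted p under 0.05, 0 in DESeq2 and 0 in limma-voom). None of 6 cholangiocyte markers passed in edgeR (1 at an unadjusted p under 0.05, 1 in DESeq2 and 0 in limma-voom), and their summed level was 34.1 to 51.9 CPM under GH and 33.0 to 56.1 CPM under PBS. Erythroid markers summed to 178 to 283 CPM under GH and 60.5 to 208 CPM under PBS, with 1 of 4 higher (25%), Alas2 (1.14, adjusted p = 0.00302), and all 4 log2 fold changes positive, with a median of 0.58. The part of zones or of other cells in the changes of the glutathione S-transferases was not tested.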

How the data were processed

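RNA of 12 livers was sequenced as ribosomal RNA-depleted, stranded libraries from both ends for 125 cycles, per the labels' protocols. The submitters' processing notes name STAR 2.4.0i and mm10. For the counting program, its annotation, strand use and multimapped reads, nothing is stated in the sources used here, so near-identical genes may share or lose reads. The authors deposited raw counts of exonic reads per gene, without normalization, for 38087 genes. Totals were 19523104 to 23278931 counts per library.

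The tests used edgeR 4.0.16 (R 4.3.3): filterByExpr with a minimum count of 10, TMM scaling, robust quasi-likelihood fitting of all 12 libraries on group alone, a two-sided test, and Benjamini-Hochberg adjustment over 14235 genes at 0.05. SE was taken as |log2 fold change| over the root of the F statistic. The fit was tested on simulated data. Ratios of 2 genes of a class (log2 CPM with a pseudocount of 0.5) were compared by an exact permutation test over all assignments of 6 of the 12 libraries. CPM per kb used the union of exons in GENCODE M21, to which 36308 genes matched, and, added after the data were seen, the length of the main transcript. Promoter windows are from RefSeq, GRCm38.p6. Shared stretches were counted over all 125-base windows of M21 transcripts.

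The 10 genes and the other lists were chosen with earlier results of these data known. All 10 are named, with every listed gene past the threshold (of more than 6, the 3 lowest and 3 highest), named regulators and passing neighbours within 100 kb. Transferases that did not pass, Mif, Derl3 and Cyp2b9 were named after their values were seen, and the AP-1 motif was added after the windows were read. Alternatives were RLE scaling, library totals, no filter, DESeq2 1.42.0, limma-voom (limma 3.58.1), a replicate block, other pseudocounts, and leaving out each library or GH library 6 with PBS library 5.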

Additional observations from a re-analysis of the deposited data

Results flagged for a closer look

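Among 50 groups of 6 libraries examined, 7 held 1 library far from the others of its group, and chance flags about 1 in 20 groups. GH library 6 was far above the other GH libraries in Gstt3 (23.2 CPM), Gsta2 (52.7 CPM) and Gsta1 (7.65 CPM), and far below them in Gstm4 (13.2 CPM), a mu gene that did not pass. PBS library 5 was far above the other PBS libraries in Gsta2 (64.3 CPM) and Gsta1 (15.7 CPM). PBS library 6 was far above the other PBS libraries in Gstm2 (81.9 CPM). Gsta1 and Gsta2 share stretches of sequence, so their values in these libraries are not independent of each other.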

How the results depend on the processing

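Gstt1, Gstt3 and Mgst3 passed in all 19 alternatives. Of 388 single-gene and pair results under alternatives, 329 kept their direction and side of the threshold, 50 lost the call, 0 gained one and 9 changed sign. The 388 include genes and pairs that did not pass in the main fit and so had no call to lose. Without 1 library, all genes called numbered 434 to 854 (682 with all), the 10 glutathione S-transferases 2 to 6 (of 6), other transferases 1 to 2 (of 2), the pathway lists 14 to 32 (of 23), neighbours 3 to 6 (of 5) and pair ratios 4 to 5 (of 5). DESeq2 called 1072 genes, and 1022 were called without GH library 6 and PBS library 5. With the replicate block 391 genes, 4 of the 10, 1 other transferase, 13 list genes and 0 pair ratios passed; Gsta3 (adjusted p = 0.147) and Gstm1 (0.118) were lost. The numbers share no stated origin, and correlations of same-numbered libraries ran from -0.20 to 0.18. With the block, the pair test had 64 sign flips and a smallest exact p of 0.0312. Adjusted over 10 pairs, that p passes only if most pairs reach it, so the 0 with the block says little about the ratios. The pair calls lost with the block are among the 50 lost calls. With library totals as the scale 1 other transferase passed, the median of all genes moved to -0.06, and higher genes made up 24.3% of calls against 47.4%. Without GH library 6 and PBS library 5, 1 other transferase and 37 list genes passed. Signs changed only in values that did not pass. Without 1 library Gsta2 ran from -1.13 to 0.01, Gsta2/Gsta3 from -0.70 to 0.03, Gstm2 from -0.12 to 0.02, Gstm6 from -0.00 to 0.10 and Gstt1/Gstt2 from -0.11 to 0.16; with library totals Gstm6 was -0.02. The causes were not tested. Depth was ample for the 10 genes, the lowest being 140 counts, of Gstt2 in GH library 3.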
